A study of Mus musculus with 10 samples.

Results

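Mast cells are tissue immune cells that mature under the control of the receptor tyrosine kinase KIT and its ligand, stem cell factor, which stromal, endothelial and epithelial cells make. They store proteases (carboxypeptidase A3, chymases and tryptases), histamine and proteoglycans in granules and release them when the high-affinity IgE receptor is crosslinked. In mice, connective tissue mast cells are known for Cpa3, Mcpt4, Cma1 and tryptase, and mucosal mast cells for Mcpt1 and Mcpt2. The genes described here are 9 genes of this system, taken by name: the ligand gene Kitl, its receptor gene Kit, the transcription factor gene Gata2, the IgE receptor chain gene Fcer1a, the protease genes Cpa3, Mcpt4, Cma1 and Tpsb2, and the histamine enzyme gene Hdc. All 9 were found among the 19938 genes measured, each with 1 probe set that carries its symbol alone.

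Total RNA from 10 tumours of the mouse thyroid was hybridised to Affymetrix arrays, with a single array for each. Papillary carcinomas (PTC, 5 tumours) were labelled TPOCreER; BrafV600E, and anaplastic carcinomas (ATC, 5 tumours) were labelled TPOCreER; BrafV600E; p53 -/-, all on a mixed C57BL/6;129SvJae background. Both groups therefore carry a thyroid peroxidase promoter that drives a tamoxifen-inducible Cre recombinase in thyroid follicular cells and a mutant Braf allele. Only the ATC label adds p53 -/-, so that tumour type and p53 genotype cannot be told apart. The labels do not state whether p53 was lost in the whole animal or in thyroid cells alone. Age, treatment schedule and animals are not stated in the labels, which call the tumours biological replicates, so p-values measure only the spread between these tumours. Values are log2 intensities as deposited, differences are ATC minus PTC, and a mean stands with its SD (±, n = 5 in each group).

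Some tumours stood apart in genes outside the mast cell system, of which Tg and Pth were picked after their values were seen. The thyroglobulin gene Tg lay at 11.28 to 12.88 in PTC and at 7.17, 12.001, 6.84, 11.48 and 10.23 in ATC replicates 1 to 5, so that ATC replicates 2 and 4 lay within the PTC range. The parathyroid hormone gene Pth lay at 12.66, 9.08, 10.93, 12.38 and 4.38 in PTC and at 6.49, 11.97, 4.74, 7.33 and 4.73 in ATC, which separates PTC replicate 5 from the other PTC tumours and ATC replicate 2 from the other ATC tumours. ATC replicate 5 had the widest distribution of values (quartiles of 6.02 and 8.72) and the lowest array weight (0.375). Of 10 thyroid follicular markers 0 were higher and 3 lower in ATC. Markers of C cells (0 of 3 higher, 1 lower, list means of 7.36 to 8.54 in PTC and 6.95 to 7.63 in ATC), skeletal muscle (0 of 9 passed, 6.88 to 8.95 and 7.10 to 8.47) and adipocytes (0 of 5 passed, 6.89 to 7.34 and 6.81 to 7.0955) also varied between tumours.

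Of the 9 genes, 4 were higher in ATC (Kitl, Fcer1a, Cpa3 and Tpsb2), 0 were lower and 5 did not pass the threshold of 0.05 (limma, adjusted over all 19938 genes). Over all genes, 11.5% passed as higher and 9.72% as lower, 21.2% together. The median difference of the 9 genes was 0.25, against −0.02 over all genes. The stem cell factor gene and the protease gene Cpa3 had the largest differences, at 3.00-fold and 3.90-fold. Kitl and Fcer1a alone passed when any 1 PTC array or ATC replicate 1, 2 or 4 was left out, and when ATC replicate 2 and PTC replicate 5 were left out together. The groups stood fully apart, with ATC higher, for 1 of the 9 genes (9.13% of all genes), and with ATC lower for 0 (7.74% of all genes). RNA of whole tumours cannot tell more cells of a type from more RNA per cell.

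**Figure D1:**
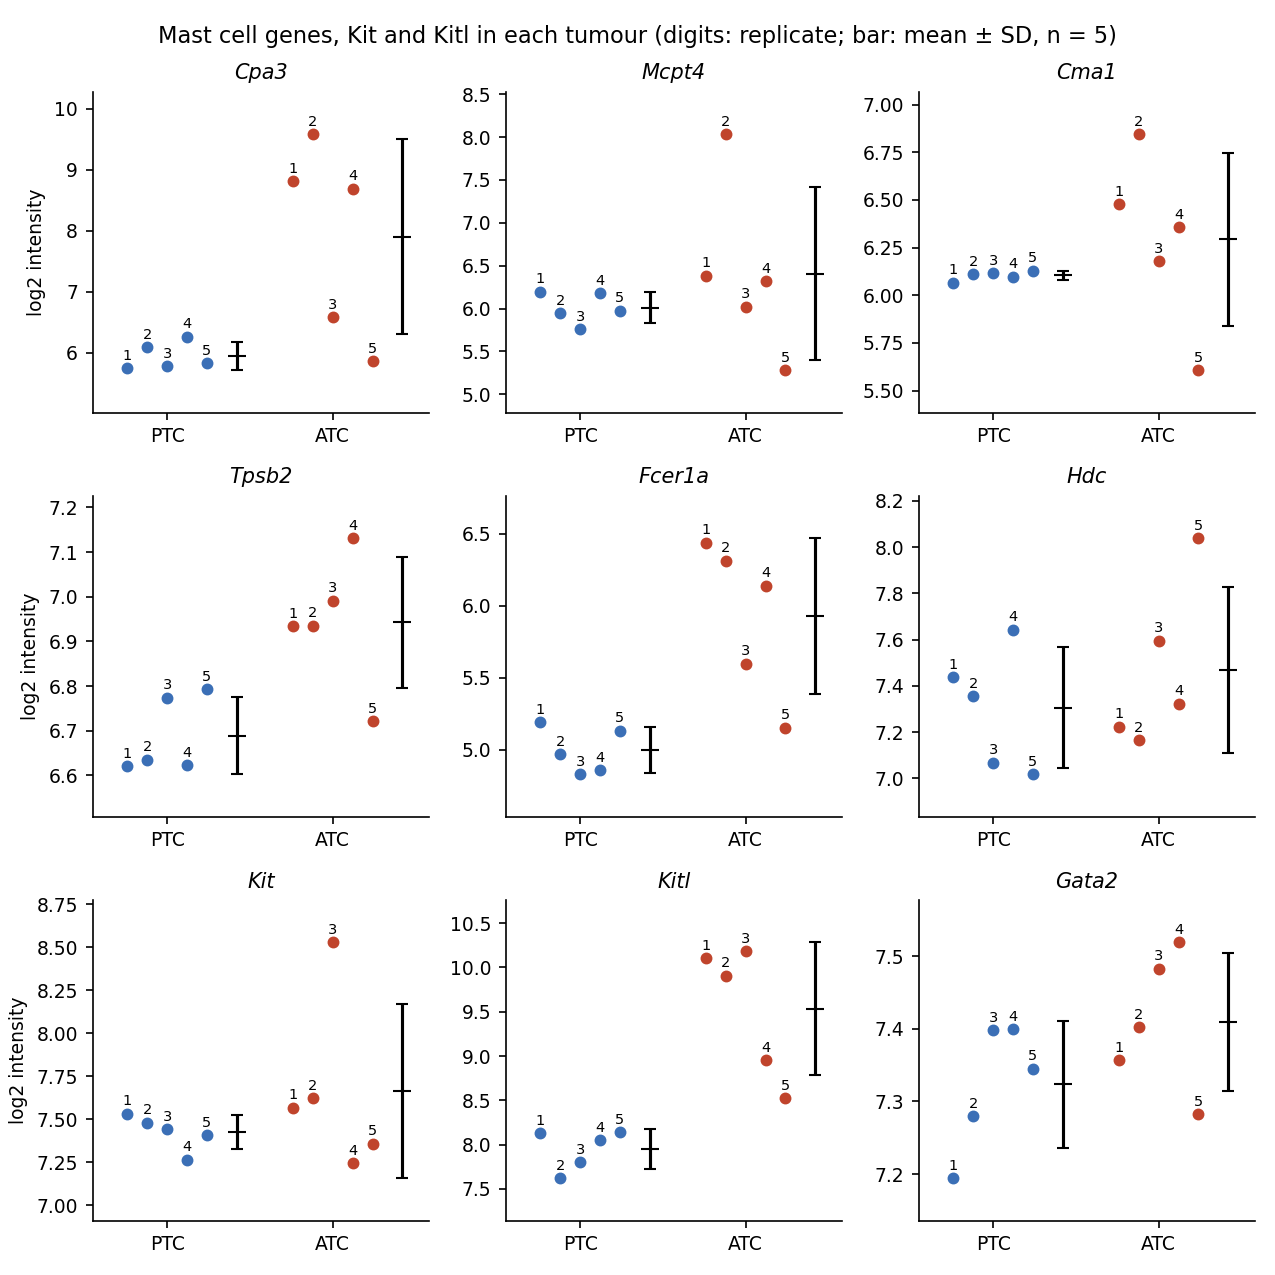
Log2 intensity of the 9 genes in each tumour, on a separate scale for each gene, with PTC in blue, ATC in red, digits for the replicate and bars for mean ± SD (n = 5). Kitl is the gene whose 5 ATC tumours all lie above the 5 PTC tumours, and Cpa3 is high in ATC replicates 1, 2 and 4.

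**Figure D2:**
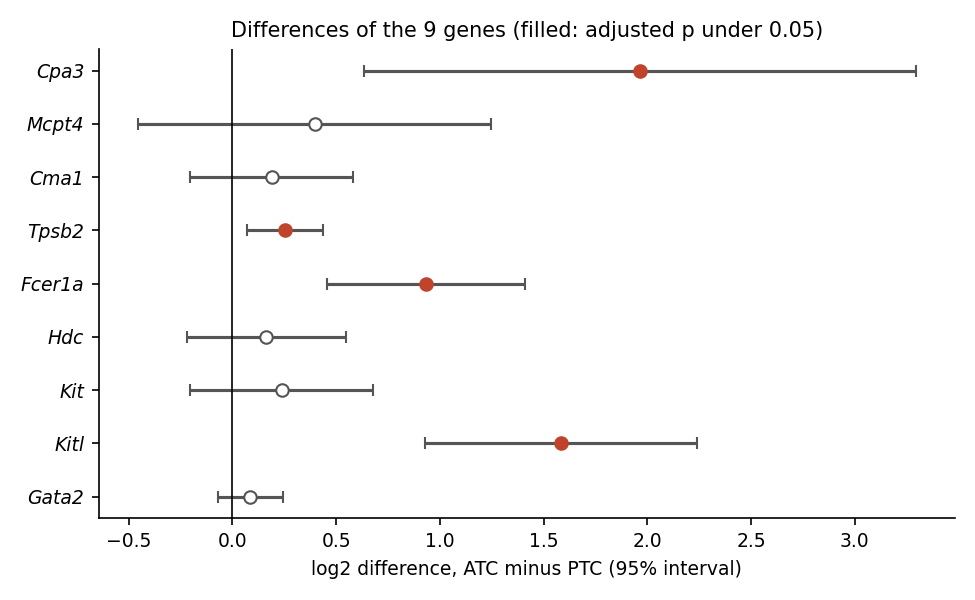
Difference ATC minus PTC on the log2 scale with its 95% interval from the limma fit for each of the 9 genes, with filled points where the adjusted p was under 0.05. The points run from 0.09 for Gata2 to 1.96 for Cpa3, and the interval of Cpa3 (0.63 to 3.29) is the widest.

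Kitl encodes stem cell factor, the ligand that mast cells need to survive. It lay at 8.13, 7.62, 7.80, 8.05 and 8.14 in PTC replicates 1 to 5 and at 10.10, 9.91, 10.18, 8.96 and 8.53 in ATC replicates 1 to 5. The groups did not overlap: ATC replicates 1, 2 and 3 were far above the PTC tumours and ATC replicates 4 and 5 nearer to them. The means were 7.95 ± 0.23 and 9.54 ± 0.75, a difference of 1.59 (SE 0.30, 95% interval 0.93 to 2.24, limma adjusted p = 0.00351). Kitl passed in all 20 alternative fits, with differences of 1.42 to 1.84 and adjusted p-values of 0.000367 to 0.0153.

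Kit encodes the receptor for that ligand, a type III receptor tyrosine kinase of mast cells, melanocytes and blood progenitors. It lay at 7.53, 7.48, 7.44, 7.27 and 7.41 in PTC and at 7.57, 7.62, 8.53, 7.25 and 7.36 in ATC. ATC replicate 3 was the single high tumour, and the other 4 ATC tumours lay between 7.25 and 7.62, around the PTC range. The difference was 0.24 (SE 0.20, 95% interval −0.20 to 0.68, limma adjusted p = 0.462), and 0.02 without ATC replicate 3 (adjusted p = 0.905). That tumour also had the highest Kitl of all 10 tumours but a Cpa3 of only 6.58, so the tumour with the most Kit signal was not among those with high Cpa3. Markers of melanocytes, which also express Kit, gave a list mean of 6.57 to 6.67 in PTC and 6.36 to 6.60 in ATC, with 0 of 6 higher and 1 lower; their part in the Kit values was not tested.

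Gata2 encodes a zinc finger transcription factor that mast cell progenitors and endothelial cells use. It lay at 7.19, 7.28, 7.40, 7.40 and 7.35 in PTC and at 7.36, 7.40, 7.48, 7.52 and 7.28 in ATC. The groups overlapped, with 3 ATC tumours just above the highest PTC tumour. The difference was 0.09 (SE 0.07, 95% interval −0.07 to 0.24, limma adjusted p = 0.455), and this gene had the smallest SD of the 9 in ATC, 0.10. Endothelial markers had list means of 8.33 to 8.81 in PTC and 8.08 to 8.51 in ATC, with 0 of 10 higher and 2 lower; their part in the Gata2 values was not tested.

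The genes of mature mast cells are shown next with the sequence in front of their start sites, because GATA factors such as GATA2 are known to regulate mast cell genes and because Fcer1a, Mcpt4 and Cma1 were the other members whose tumour-to-tumour pattern lay nearest to that of Cpa3. Each line gives the 250 bases before the RefSeq start on the gene's own strand (GRCm38.p6), 5′ to 3′, with capitals for a GATA hexamer (AGATAA and likewise TGATAA or AGATAG and likewise TGATAG, on either strand). The windows are chr3:20242182-20242431 for Cpa3, chr1:173227230-173227479 for Fcer1a, chr14:56062311-56062560 for Mcpt4 and chr14:55944676-55944925 for Cma1, all on the minus strand.
Cpa3: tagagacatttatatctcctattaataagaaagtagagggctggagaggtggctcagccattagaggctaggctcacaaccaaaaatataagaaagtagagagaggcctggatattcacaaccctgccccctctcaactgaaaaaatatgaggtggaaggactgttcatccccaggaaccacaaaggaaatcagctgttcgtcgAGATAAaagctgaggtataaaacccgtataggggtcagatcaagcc
Fcer1a: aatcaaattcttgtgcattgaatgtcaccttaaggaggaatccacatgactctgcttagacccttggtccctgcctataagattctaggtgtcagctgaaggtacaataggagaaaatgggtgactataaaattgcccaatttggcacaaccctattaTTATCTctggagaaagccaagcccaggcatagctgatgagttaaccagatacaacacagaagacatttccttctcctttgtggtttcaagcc
Mcpt4: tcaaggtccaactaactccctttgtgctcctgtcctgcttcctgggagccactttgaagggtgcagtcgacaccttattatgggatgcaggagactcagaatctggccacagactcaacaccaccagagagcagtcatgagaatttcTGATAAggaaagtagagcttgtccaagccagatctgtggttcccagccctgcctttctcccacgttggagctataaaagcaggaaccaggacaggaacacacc
Cma1: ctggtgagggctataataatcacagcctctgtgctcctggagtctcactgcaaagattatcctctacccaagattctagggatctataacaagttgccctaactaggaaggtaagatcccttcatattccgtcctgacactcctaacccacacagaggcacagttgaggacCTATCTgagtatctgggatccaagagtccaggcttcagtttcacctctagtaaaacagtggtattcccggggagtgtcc
Each of the 4 windows holds 1 such hexamer, at −46 to −41 in Cpa3, −92 to −87 in Fcer1a, −103 to −98 in Mcpt4 and −79 to −74 in Cma1, counted back from the start. Windows were found for 8 of the 9 genes, 10 windows in all. Of these 10 windows, 5 held a hexamer, each of a different gene, the other being that of Hdc. Of all 32851 windows of the same length, 26.5% held at least 1. A match of 6 letters is a description and not evidence of binding.

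Fcer1a encodes the ligand-binding chain of the high-affinity IgE receptor of mast cells and basophils. It lay at 5.19, 4.97, 4.83, 4.86 and 5.13 in PTC and at 6.44, 6.31, 5.60, 6.14 and 5.15 in ATC. ATC replicates 1 to 4 lay above every PTC tumour and ATC replicate 5 lay among them. The difference was 0.93 (SE 0.22, 95% interval 0.45 to 1.41, 1.91-fold, limma adjusted p = 0.0108). Fcer1a passed in all 18 alternatives that could be fitted (0.80 to 1.17, adjusted p 0.00062 to 0.0376). Its probe set was the dimmest of the 9, so the fold may be compressed.

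Cpa3 encodes carboxypeptidase A3, the metalloprotease of mast cell granules. It lay at 5.74, 6.09, 5.78, 6.26 and 5.83 in PTC and at 8.81, 9.58, 6.58, 8.69 and 5.87 in ATC. ATC replicates 1, 2 and 4 were more than 2 log2 units above the highest PTC tumour, ATC replicate 3 was just above it, and ATC replicate 5 lay within the PTC range. The means were 5.94 ± 0.23 and 7.90 ± 1.59, a difference of 1.96 (SE 0.61, 95% interval 0.63 to 3.29, 3.90-fold, limma adjusted p = 0.0397). The ATC SD of Cpa3 was at percentile 99.8 of all genes and 7.0 times as large as its PTC SD. The SE, interval and adjusted p rest on 1 estimate of the spread shared by both groups. The call ended when any 1 PTC array or ATC replicate 1, 2 or 4 was left out (differences of 1.55 to 2.04, adjusted p-values of 0.064 to 0.0893). It held when ATC replicate 3 was left out (2.29, adjusted p = 0.022) and when ATC replicate 5 was (2.47, adjusted p = 0.00628).

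Mcpt4 and Cma1 encode chymases of connective tissue mast cells and lie in the same protease cluster on chromosome 14. Mcpt4 lay at 6.20, 5.94, 5.76, 6.18 and 5.98 in PTC and at 6.38, 8.03, 6.02, 6.32 and 5.28 in ATC. ATC replicate 2 held the high value and ATC replicate 5 the lowest of all 10 tumours. The difference was 0.40 (SE 0.39, 95% interval −0.46 to 1.25, limma adjusted p = 0.535), and −0.01 with ATC replicate 2 left out (adjusted p = 0.982).

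Cma1 lay at 6.07, 6.11, 6.12, 6.10 and 6.13 in PTC and at 6.48, 6.84, 6.18, 6.36 and 5.61 in ATC. The PTC tumours were almost level, ATC replicates 1 to 4 lay above all of them and ATC replicate 5 below. The difference was 0.19 (SE 0.18, 95% interval −0.20 to 0.58, limma adjusted p = 0.517), 0.05 with ATC replicate 2 left out (adjusted p = 0.863) and 0.36 with ATC replicate 5 left out (adjusted p = 0.0531). The SD of Cma1 was 0.02 in PTC and 0.45 in ATC, 19.0 times as large. The probe sets of Mcpt4 and Cma1 were both dim (percentiles 19.2 and 19.0), and signal from the neighbouring paralogs was not checked. ATC replicate 5 had the lowest lower quartile of all arrays (6.02), and the part of that array in their low values there was not tested.

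Tpsb2 encodes a mast cell tryptase. It lay at 6.62, 6.64, 6.77, 6.62 and 6.79 in PTC and at 6.93, 6.94, 6.99, 7.13 and 6.72 in ATC. ATC replicates 1 to 4 lay above the PTC tumours by a small margin and ATC replicate 5 lay among them. The difference was 0.25 (SE 0.08, 95% interval 0.07 to 0.43, 1.19-fold), just inside the threshold (limma adjusted p = 0.0496). The call ended in each of the 9 fits that left out an array other than ATC replicate 5 (differences of 0.21 to 0.28, adjusted p-values of 0.0512 to 0.111) and held without that array (0.31, adjusted p = 0.0137). The neighbouring tryptase gene Tpsab1 differed by 0.49 (6.25 ± 0.13 and 6.75 ± 0.44, limma adjusted p = 0.0771), with ATC replicates 1, 2, 3, 4 and 5 at 7.15, 6.88, 6.53, 7.09 and 6.09. With 1 array left out, Tpsab1 passed in 1 of 10 fits, that without ATC replicate 5 (0.66, adjusted p = 0.0059), and was smallest without ATC replicate 1 (0.39, adjusted p = 0.164).

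Hdc encodes histidine decarboxylase, which makes histamine in mast cells, basophils and some neutrophils. It lay at 7.44, 7.36, 7.07, 7.64 and 7.02 in PTC and at 7.22, 7.16, 7.60, 7.32 and 8.04 in ATC. The groups overlapped, and the highest value was that of ATC replicate 5, the ATC tumour with the lowest Cpa3, Fcer1a, Mcpt4 and Cma1. The difference was 0.16 (SE 0.17, 95% interval −0.22 to 0.55, limma adjusted p = 0.571), and 0.02 with ATC replicate 5 left out (adjusted p = 0.942). Neutrophil markers had list means of 6.57 to 7.60 in PTC and 6.46 to 7.05 in ATC, with 0 of 11 higher and 1 lower, and their part in the Hdc values was not tested.

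Within ATC the 4 genes Cpa3, Mcpt4, Cma1 and Fcer1a ranked the tumours alike. Cpa3, Mcpt4 and Cma1 all ran from replicate 2 through 1, 4 and 3 down to 5, and Fcer1a from replicate 1 through 2, 4 and 3 to 5. Kitl ran from replicate 3 through 1, 2 and 4 to 5, so replicate 5 was lowest for these 5 genes, while replicate 3 was highest for Kitl and next to lowest for Cpa3, Mcpt4 and Cma1. Tpsb2 and Gata2 ran from replicate 4 through 3, 2 and 1 to 5. The other members ranked the ATC tumours otherwise. Hdc ran from replicate 5 through 3, 4 and 1 to 2, the reverse of Cpa3, and Kit from replicate 3 through 2, 1 and 5 to 4. The array of ATC replicate 5 also had the lowest lower quartile (6.02, against 6.10 to 6.19 in the other ATC arrays). Among dim markers of other cell types (under the 20th percentile), Tyr, Tyrp1, Ngp, Lep and Prss34 were also lowest of ATC in replicate 5. Dct, Ly6g, Cd200r3, Adipoq and Slc26a4 were not. The part of this array in the low values of replicate 5 was not tested. All 9 genes had the larger SD in ATC, as did 68.6% of all genes. The list mean of 12 mast cell markers, 8 of which are genes described here, was 6.01, 5.96, 5.93, 6.00 and 5.92 in PTC and 6.57, 6.80, 6.27, 6.58 and 5.89 in ATC. Of these markers 3 were higher and 0 lower, all 3 of them among the 9 genes. The receptor gene Mrgprb1, a connective tissue mast cell marker that was named after its values were seen, lay at 5.37, 5.37, 4.93, 5.62 and 4.51 in ATC against 4.48 to 4.83 in PTC (difference 0.52, limma adjusted p = 0.0656, 0.68 without ATC replicate 5, adjusted p = 0.00598, and 0.41 without ATC replicate 4, adjusted p = 0.126). Ms4a2, the beta chain of the IgE receptor, was very low in every tumour (4.59 to 4.71 in PTC and 4.64 to 5.13 in ATC, adjusted p = 0.231).

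**Figure D3:**
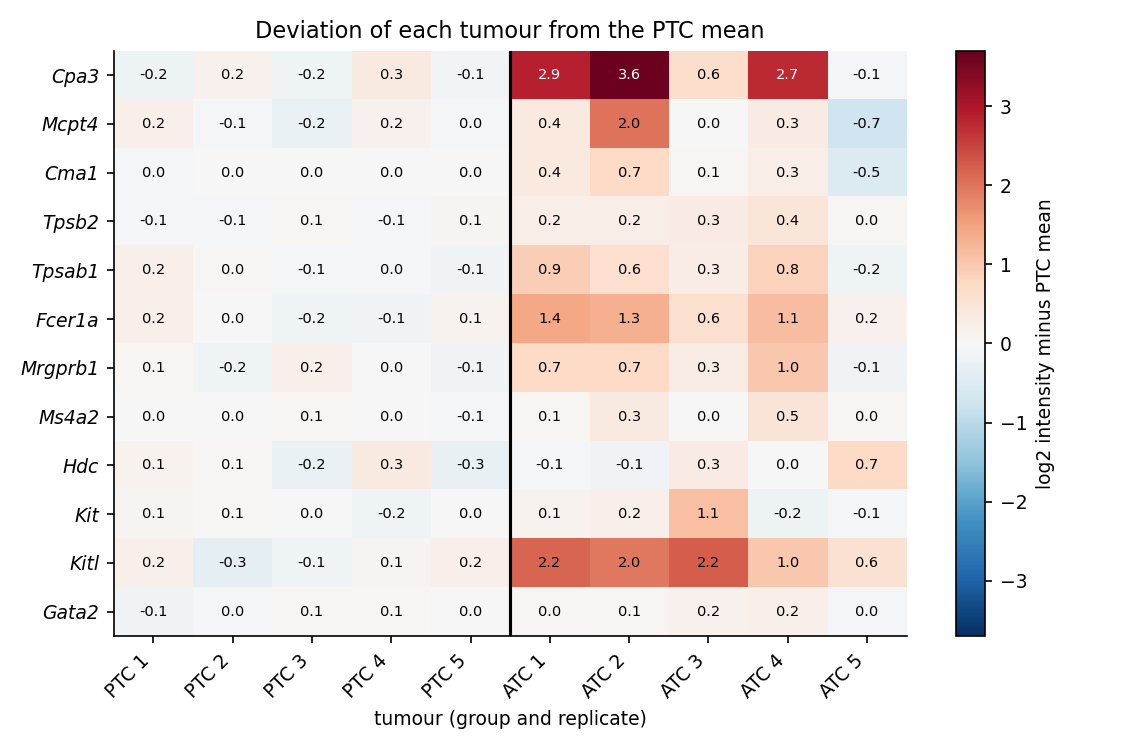
Log2 intensity of each tumour minus the PTC mean of the gene, for the 9 genes and for Tpsab1, Mrgprb1 and Ms4a2, with red for higher and blue for lower. Columns ATC 1, 2 and 4 are red for Cpa3 and Fcer1a, column ATC 5 is pale for both, and the row of Kitl is red in every ATC column.

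Likeness to Cpa3, Kit and Kitl was measured as Pearson's r over the 10 tumours after centring each gene on its group mean. The nearest genes were sought with members, predicted genes, clones and olfactory or vomeronasal receptors left out. Nearest to Cpa3 among the genes kept were Klrc3 (0.973), Hepacam2 (0.968) and Lrrc8d (0.955). Counted among all other genes, with none left out, Cma1 ranked at place 8 (0.919), Fcer1a at 21 (0.888) and Mcpt4 at 108 (0.834). The other members were less like Cpa3 or opposite to it: Tpsb2 (0.429), Kitl (0.363), Gata2 (0.262), Kit (−0.321) and Hdc (−0.705, place 18968). Nearest to Kit were Rhbdd1 (0.983), Ercc1 (0.973) and Atg9b (0.972), and nearest to Kitl were Tex37 (0.970), Lgi1 (0.963) and Foxn4 (0.937). Spearman's rho was 0.842 to 0.976 for these 9 pairs. These values are descriptions over n = 10 tumours, each of which gives all its genes from the same array. Tumours far from their group mean weigh most in r. For Cpa3 these were ATC tumours (SD of 1.59 in ATC and 0.23 in PTC). For Kit it was mainly ATC replicate 3 (8.53, against 7.25 to 7.62 in the other ATC tumours).

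Other genes known from mast cells formed a list of 27, of which 23 were measured. Among these, 7 were higher, 2 lower and 14 did not pass (39.1% passed, against 21.2% of all genes), with a median of 0.10. Hpgds, the haematopoietic prostaglandin D synthase, rose from 8.22 ± 0.11 to 9.73 ± 0.49 (1.51, SE 0.20, limma adjusted p = 0.000473). Fcer1g, the signalling chain that the IgE receptor shares with other Fc receptors, rose by 0.63 (adjusted p = 0.0197) and did not pass without ATC replicate 2 and PTC replicate 5 (0.49, adjusted p = 0.0587). Mitf, a transcription factor of mast cells and melanocytes, differed by 0.47 (adjusted p = 0.0582), and Gata1 by −0.02 (adjusted p = 0.869). The 2 genes that fell, named after their values were seen, were the secretory Rab gene Rab27b (−0.95, adjusted p = 0.000421) and the prostaglandin receptor gene Ptger3 (−0.43, adjusted p = 0.00221). Macrophages also express Hpgds and Fcer1g, and macrophage markers rose in 10 of 10 genes, with list means of 9.28 to 9.73 in PTC and 10.65 to 11.41 in ATC; the part of macrophages in these rises was not tested.

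The mucosal mast cell chymase genes Mcpt1 and Mcpt2 were bright in most PTC tumours and uneven in both groups. Mcpt1 lay at 10.93, 8.62, 9.44, 10.24 and 7.23 in PTC and at 4.68, 11.14, 5.30, 8.31 and 7.05 in ATC, and Mcpt2 at 11.13, 8.96, 9.88, 10.33 and 6.86 and at 5.35, 11.39, 6.45, 10.25 and 7.78. The spread reached 6.47 log2 units within ATC for Mcpt1, and neither gene passed, with −1.99 for Mcpt1 (limma adjusted p = 0.248) and −1.19 for Mcpt2 (adjusted p = 0.523). With ATC replicate 2 left out Mcpt1 passed as lower in ATC (−2.955, adjusted p = 0.0318), and with ATC replicate 1 left out it was at −1.34 (adjusted p = 0.454). Mcpt2 was at −0.46 with ATC replicate 1 left out (adjusted p = 0.819).

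Mcpt8, the protease by which mouse basophils are usually recognised, was also uneven, at 12.45, 12.03, 11.86, 11.75 and 9.40 in PTC and at 7.12, 12.14, 8.28, 9.63 and 8.99 in ATC. The difference was −2.26 (SE 0.84, limma adjusted p = 0.080), and −2.99 without ATC replicate 2 (adjusted p = 0.00773) or −2.79 without PTC replicate 5 (adjusted p = 0.0358). The other 8 fits with 1 array left out did not pass, and the smallest difference was −1.74, with ATC replicate 1 left out (adjusted p = 0.166). Mcpt8, Prss34 and Itga2 are named here with their values already seen. The basophil protease gene Prss34 stayed between 5.78 and 6.05 in all 10 tumours (adjusted p = 0.906). Of 6 basophil markers, 1 was higher (Fcer1a) and 1 lower (Itga2, an integrin gene that platelets and epithelia also express), with list means of 7.08 to 7.73 in PTC and 6.87 to 7.80 in ATC.

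In PTC, Mcpt1 and Mcpt2 ranked the tumours from replicate 1 through 4, 3 and 2 to 5, which was also the order of Pth, whereas Tg ran from replicate 5 through 1, 4 and 3 to 2. In ATC both ran from replicate 2 through 4, 5 and 3 to 1, whereas Tg ran from replicate 2 through 4, 5 and 1 to 3 and Pth from 2 through 4, 1 and 3 to 5. Parathyroid markers (2 of 3 measured) had list means of 5.62 to 10.24 in PTC and 5.47 to 9.71 in ATC, and those of thyroid follicular cells (10 of 11 measured) 7.89 to 8.89 and 6.66 to 8.10. The part of parathyroid or thyroid tissue in the Mcpt1 and Mcpt2 values was not tested.

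**Figure D4:**
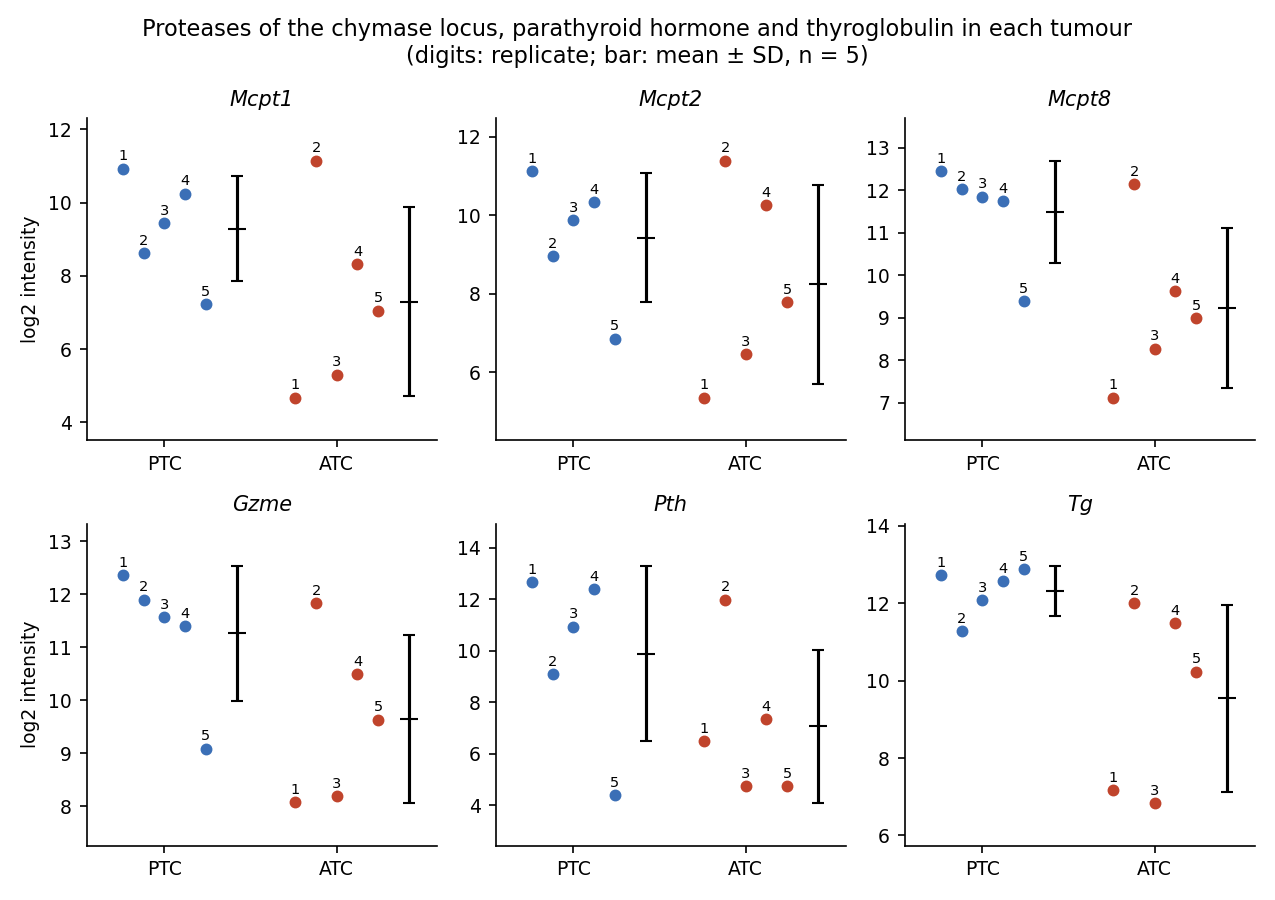
Log2 intensity of Mcpt1, Mcpt2, Mcpt8, Gzme, Pth and Tg in each tumour, with digits for the replicate and bars for mean ± SD (n = 5). ATC replicate 2 is the highest ATC tumour in all 6 panels, and PTC replicate 5 is the lowest PTC tumour in all of them except Tg.

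The receptor family and the signalling genes around KIT and the IgE receptor were described from lists. Of 11 genes of type III receptor tyrosine kinases other than Kit and of their ligands, 4 were higher, 1 lower and 6 did not pass. The share that passed was 45.5%, against 21.2% of all genes. The ligand genes Csf1 (1.85, limma adjusted p = 4.21e-05), Il34 (1.10, adjusted p = 0.00939) and Pdgfc (1.09, adjusted p = 0.000293) rose with the macrophage receptor gene Csf1r (1.35, adjusted p = 0.000374), and the ligand gene Pdgfd fell by 1.69 on the log2 scale (adjusted p = 0.00243). Pdgfra, a receptor of mesenchymal cells, differed by 1.17 (adjusted p = 0.0848) and, with 1 array left out, passed in 1 of 10 fits, that without ATC replicate 2 (1.57, adjusted p = 0.0056), and was smallest without ATC replicate 3 (0.94, adjusted p = 0.173). Fibroblast markers had list means of 9.53 to 9.68 in PTC and 8.88 to 9.73 in ATC, with 0 of 8 higher and 3 lower; their part in the Kitl and Pdgfra values was not tested.

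Of 22 measured adapters and regulators of KIT signalling, 4 were higher, 1 lower and 17 did not pass, with a median of 0.15. The share that passed, 22.7%, was near the 21.2% of all genes. The Src family kinase gene Fyn (0.67, limma adjusted p = 0.000828), the adapter genes Grb10 (0.71, adjusted p = 0.0408) and Sh2b3 (0.35, adjusted p = 0.0171) and the ubiquitin ligase gene Cbl (0.34, adjusted p = 0.0073) rose, and the kinase gene Jak2 (−0.54, adjusted p = 0.00313) fell. Leaving out any 1 PTC array or ATC replicate 3, 4 or 5 ended the Grb10 call (differences of 0.58 to 0.77, adjusted p-values of 0.0536 to 0.0907). Of 15 measured genes of IgE receptor signalling, 7 were higher, 0 lower and 8 did not pass (46.7% passed). The largest rises were those of the protein kinase C gene Prkcb (1.60, adjusted p = 5.8e-05), the phosphatase gene Inpp5d (0.88, adjusted p = 0.00403) and the adapter gene Lat2 (0.70, adjusted p = 0.000538), all of which other blood cells express too. The macrophage markers above were also higher in ATC, and the part of macrophages in these rises was not tested.

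Among 7 measured genes of histamine receptors, transport and breakdown, 0 were higher and 1 was lower (14.3% passed, against 21.2% of all genes). Hnmt, the methyltransferase that inactivates histamine, fell from 9.76 ± 0.28 to 8.19 ± 0.40 (−1.57, SE 0.19, limma adjusted p = 0.000333), with all 5 ATC tumours below all 5 PTC tumours. The amine oxidase gene Aoc1 was at −0.45 (adjusted p = 0.135) and the receptor gene Hrh3 at 0.14 (adjusted p = 0.306). Of 12 measured growth factors of mast cells and their receptors, 0 were higher and 2 were lower (16.7% passed). Il3, a mast cell growth factor of T cells, fell by 0.63 (adjusted p = 0.0167) at low levels (5.87 ± 0.24 to 5.24 ± 0.33), and the alarmin gene Il33 fell by 1.07 (adjusted p = 0.0427). Leaving out any 1 PTC array or ATC replicate 1, 4 or 5 ended the Il33 call (differences of −1.14 to −0.815, adjusted p-values of 0.0562 to 0.101). Tslp, another alarmin gene, differed by 0.40 (adjusted p = 0.333) with ATC replicate 1 at 7.03 and the other ATC tumours at 5.37 to 5.96.

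Of 10 GATA factors and partners other than Gata2, 2 were higher and 0 lower. Gata6 rose by 0.98 (limma adjusted p = 0.000502) and the adapter gene Lmo2 by 0.55 (adjusted p = 0.0305), a call that leaving out PTC replicate 1, 3, 4 or 5 or ATC replicate 1, 2 or 5 ended (differences of 0.43 to 0.55, adjusted p-values of 0.0593 to 0.0655). Gata3 differed by −0.34 (adjusted p = 0.163).

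**Figure D5:**
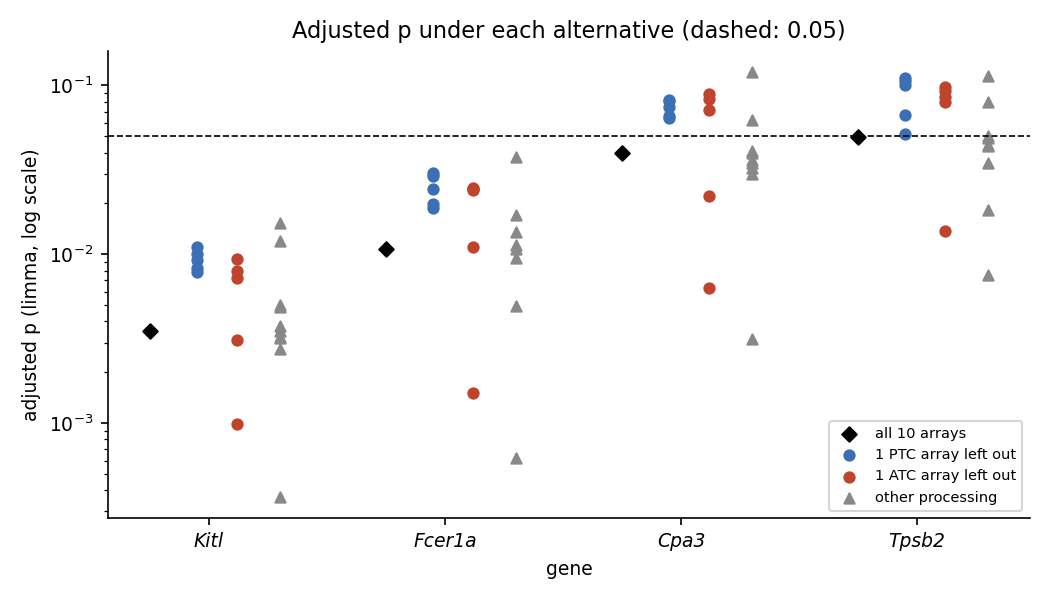
Adjusted p (limma, log axis) of the 4 genes that were higher in ATC, with a dashed line at 0.05. The diamond is the fit with all 10 arrays, and circles are fits with 1 array left out (blue for PTC and red for ATC). Triangles are fits under other processing and the fit without ATC replicate 2 and PTC replicate 5 together. All points of Kitl and Fcer1a lie under the line, and those of Cpa3 and Tpsb2 lie on both sides.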

How the data were processed

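The series table holds 35556 probe sets on 10 arrays. Affymetrix Power Tools and limma appear, with no version or role, in the submitters' processing notes. The sources used here do not state the normalization, the summarisation or the build. Deposited values ran from 2.79 to 14.15 with array medians of 7.25 to 7.34, and from this range their unit was taken as log2 intensity. Groups came from the titles. GEO's annotation of the platform named the probe sets: 21789 had 1 symbol, 1621 several and 12146 none here. Each gene was represented by its probe set with the highest mean. The contrast of ATC against PTC came from limma (version 3.58.1, lmFit with eBayes, under R 4.3.3), using no covariate and no filter, with Benjamini-Hochberg adjustment over 19938 genes, and the fit was tested on simulated data. In this fit both groups shared 1 estimate of the spread of each gene. The simulated data also had the same spread in both groups, so they cannot show how the fit behaves where the spreads differ. The members and lists were chosen with earlier results of these data known. Named beside the 9 members were fixed partner genes and, per list, the 3 genes with the largest difference. All genes of a list that passed were also named where 5 or fewer did. The 3 genes most alike to each of Cpa3, Kit and Kitl, among those kept for likeness, were named too. Genes without a probe set of 1 symbol, such as Il1rl1 and Lyn, are not analysed here. Promoter windows were RefSeq sequences of GRCm38.p6. Python 3.11.15, numpy 2.4.6, pandas 2.3.3, scipy 1.17.1 and matplotlib 3.10.9 were used. Alternatives were a replicate block, other handling of probe sets, 2 filters on dim genes, 2 further scalings, a variance trend, array weights and arrays left out. Precision is limited by the number of arrays, and detection above background is unknown.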

Additional observations from a re-analysis of the deposited data

Results flagged for a closer look

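Each gene named with values was searched within each group of 5 tumours for a tumour whose gap to the next was more than 0.71 of the group's range. None of the 9 members held such a tumour in either group. Among 106 combinations of gene and group, 7 stood out. Chance alone marks about 1 in 20 where the samples are independent and not selected. The genes searched share the same arrays, and some, such as Mcpt8, were named after their values were seen. The count of 7 therefore cannot be judged against that rate. Mcpt8 in PTC replicate 5 was at 9.40 against 11.75 to 12.45 in the other PTC tumours. Hnmt in PTC replicate 1 was at 9.27 against 9.83 to 9.92, Csf1 in PTC replicate 1 at 8.09 against 7.74 to 7.77, and Tslp in PTC replicate 5 at 5.20 against 5.54 to 5.65. In ATC, Il3 was at 4.665 in replicate 5 against 5.29 to 5.48, Csf1r at 10.29 in replicate 3 against 11.03 to 11.32, and Fcer1g at 11.21 in replicate 3 against 11.77 to 11.96.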

How the results depend on the processing

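Of the 9 members, Kitl, Fcer1a, Kit, Hdc, Gata2 and Cma1 kept their direction and their side of the threshold in every alternative that could be fitted. The Cpa3 call (1.96) ended when eBayes used a trend and robust fitting (1.96, adjusted p = 0.0622) and without ATC replicate 2 and PTC replicate 5 together (1.52, adjusted p = 0.120), and ran from 1.55 to 2.47 with single arrays left out. The Tpsb2 call (0.25) ended with all probe sets tested (0.25, adjusted p = 0.0502), with the replicate block (0.25, adjusted p = 0.113) and without both arrays (0.28, adjusted p = 0.080), and ran from 0.21 to 0.31 with single arrays left out. Mcpt4 ran from −0.01 to 0.68 with single arrays left out and was at −0.0189 without both. Of the members, 2 passed without both arrays, 2 to 4 with single arrays left out and 1 with the filter at the 40th percentile, which removed all but Kit, Kitl, Hdc and Gata2; that at the 20th percentile removed Fcer1a, Mcpt4 and Cma1. Gata1 (−0.02) turned to 0.0167 with median centring and to 0.0467 with quantile normalization once more, and Prss34 (0.02) ran from −0.0201 to 0.0464 with single arrays left out. Over all genes the block moved the calls from 4234 to 3762. Deviations of same-numbered tumours correlated at −0.086 to 0.12, and 2 of 10 tumours correlated best with their own number, so the pairing by number was not used. Of 27 other genes called, 6 lost the call at least once, and 9 others passed under some alternative. The causes were not tested. Dim probe sets limit Fcer1a, Mcpt4, Cma1 and Mrgprb1 most.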

Other observations

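Mcpt4 and Cma1 lie in a cluster of serine protease genes on chromosome 14, and the cluster was not uniform between the tumour types. Of 13 genes measured there from Cma1 to Gzmb in the order of the RefSeq gene table, 5 were higher in ATC, 0 lower and 8 did not pass. Over all genes, 11.5% were higher and 9.72% lower. The 5 were all granzyme genes, which encode proteases of cytotoxic lymphocytes: Gzmg (2.46, limma adjusted p = 0.000139), Gzmf (2.43, adjusted p = 0.00055), Gzmd (2.14, adjusted p = 0.0215), Gzmc (1.65, adjusted p = 0.000374) and Gzmb (0.51, adjusted p = 0.0116). The Gzmd call ended without PTC replicate 4 (1.99, adjusted p = 0.0542), and that of Gzmb without ATC replicate 2 and PTC replicate 5 together (0.48, adjusted p = 0.0509). These genes were named after their values were seen, and signal shared between paralogs was not tested.

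Gzme, another granzyme gene of the cluster, lay at 12.36, 11.90, 11.56, 11.40 and 9.09 in PTC and at 8.08, 11.83, 8.19, 10.49 and 9.64 in ATC (difference −1.61, limma adjusted p = 0.169, −2.16 without ATC replicate 2, adjusted p = 0.0456, and −1.22 without ATC replicate 1, adjusted p = 0.325). The order of the tumours by Gzme was that of Mcpt8 in both groups.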
